A study of Caenorhabditis elegans with 9 samples.

Results

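The 10 heterochronic genes lin-14, lin-28, lin-46, hbl-1, lin-41, lin-42, lin-29, daf-12, lin-66 and blmp-1 were followed on 9 Affymetrix C. elegans arrays. They were chosen by name, with earlier results of these data known. A probe set is a group of short probes read as a single signal. The 10 are among the 17118 genes that have a probe set annotated to that gene alone. Together they have 21 of the 20766 such probe sets: 2 genes have 1 probe set, 5 have 2 and 3 have 3. Each gene is represented by its brightest probe set, that is, the one with the highest mean over all 9 arrays, and its other probe sets are given as well. The probe sets of a gene are annotated to that same gene and are not counted as independent of each other. Which of its transcripts each one reads was not analysed. All values are log2 signals, on which a difference of 1 is a doubling, and signals of different probe sets were not compared as levels.

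Wnt overactivation larvae carried deIs10 and huIs1 (3 arrays, replicates 1, 3 and 4), Wnt underactivation larvae carried deIs10 and deIs26 (3 arrays, replicates 2, 4 and 5), and the control was the wild-type strain N2 (3 arrays, replicates 2, 3 and 4). huIs1 encodes BAR-1/beta-catenin without the amino-terminal region through which it is degraded, and deIs26 encodes POP-1/TCF without its beta-catenin binding domain. Both are expressed from the hsp-16.2 heat shock promoter with dpy-20(+) as a marker, in a dpy-20(e1282) unc-30(e191) background, and therefore in every tissue in which that promoter is active. deIs10 expresses FLAG::PAB-1, a tagged poly(A) binding protein, in seam cells and vulval precursor cells (VPCs) from an enhancer of bar-1, along with unc-30(+) and ajm-1::gfp. Larvae of all groups were grown for 26 h at 20° to the L2/L3 molt, heat shocked for 30 min at 37° and collected 1 h later, and their mRNA was coimmunoprecipitated with FLAG. N2 went through the same heat shock and precipitation but has neither the tag nor a transgene, so a comparison with N2 holds the tag, the transgene and the background mutations together, and these cannot be told apart. Each transgenic strain is a single integrated line. The replicates are described as biological triplicates.

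Heterochronic genes set the stage at which a larval cell carries out its division and differentiation program. In the seam cells, stem-like cells of the lateral epidermis, they separate the L1 program from the doubling division of the L2, and both of these from the exit from the cell cycle and the secretion of adult cuticle at the last molt. LIN-14 specifies L1 events. LIN-28 and HBL-1 specify L2 events, and LIN-46 acts opposite to LIN-28. LIN-41 holds back LIN-29, the zinc-finger transcription factor that turns on the adult program. The microRNAs lin-4 and the let-7 family lower the early regulators as larvae age, and the nuclear receptor DAF-12 ties these steps to hormone signaling. In the VPCs the same genes set when the cells become competent to be induced.

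The arrays of a group resembled each other, with correlations over all probe sets between 0.956 and 0.965 in overactivation, 0.969 and 0.976 in underactivation, and 0.942 and 0.960 in N2. The probe set of pop-1, the gene carried by deIs26, averaged 10.22 in underactivation and 5.49 in N2, a difference of 4.73 (adjusted p = 0.0799, limma), and that of bar-1 read 10.002, 9.64 and 11.75 in overactivation and 9.04, 9.55 and 9.18 in N2 (difference 1.21, adjusted p = 0.235). Overactivation replicate 4 was by far the highest of these bar-1 values. The heat shock gene hsp-70 read 5.77, 4.73 and 8.13 in overactivation, 8.71, 10.06 and 6.92 in underactivation, and 5.86, 10.19 and 11.16 in N2. hsp-16.2, whose promoter drives both transgenes, ran from 9.76 to 11.23, from 10.12 to 11.38 and from 9.82 to 11.64 in the same order. The part that these heat shock signals had in the differences below was not tested. Of 12 seam cell markers, 9 had a probe set of their own. None of the 9 passed against N2 in either tagged group, with 4 higher in overactivation and 0 in underactivation at an unadjusted p under 0.05, where 8.83% and 6.51% of all probe sets were. Those 4, egl-18, elt-6, grd-3 and che-14, are among the Wnt-regulated genes that the paper identified by comparing overactivation with N2. Their rise therefore gives no separate measure of seam cell content. The mean of the 9 markers on an array ran from 7.59 to 7.88 in overactivation, from 6.59 to 7.39 in underactivation and from 6.70 to 7.09 in N2. The mean of 8 VPC markers ran from 6.74 to 7.25 in overactivation, from 6.37 to 6.74 in underactivation and from 6.35 to 7.23 in N2. The mean of the body wall muscle markers, 8 of 8 measured, ran from 9.13 to 9.71 in overactivation, from 9.55 to 10.07 in underactivation and from 10.23 to 10.46 in N2, and that of the intestinal markers, 7 of 8 measured, from 6.55 to 7.63, from 6.38 to 7.66 and from 7.67 to 8.31 in the same order. Among the intestinal markers, however, elt-2 averaged higher than N2 by 1.31 in overactivation and by 0.94 in underactivation. The mean of the neuronal markers, 8 of 8 measured, was also lower on every overactivation array (6.48 to 6.87) and every underactivation array (6.64 to 7.08) than on any N2 array (7.27 to 7.37), although 3 of the 8, snb-1, unc-31 and unc-119, averaged higher in overactivation than in N2. Of these markers, myo-3 and unc-54 of muscle, egl-3 of neurons and ges-1 of intestine passed as lower in overactivation than in N2, where 0.692% of all probe sets did. hlh-1 of muscle lay above N2 in underactivation by 0.36. Germline markers, 8 of 8 measured, had means from 5.20 to 5.71, from 5.12 to 5.58 and from 5.77 to 6.14 in the same order. Of these, 1 (him-3) averaged higher in overactivation than in N2. The precipitate thus held transcripts of other tissues in all 3 groups. For a gene expressed in several tissues, fewer cells of a type and less RNA per cell cannot be told apart here.

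On each array 5 controls read the 3' and the 5' end of the same transcript. For actin, the 3' signal exceeded the 5' signal by 1.88, 2.25 and 1.47 in overactivation replicates 1, 3 and 4, by 2.08, 0.90 and 2.35 in underactivation replicates 2, 4 and 5, and by 0.67, 0.80 and 0.91 in N2 replicates 2, 3 and 4. Underactivation replicate 4 lay with the N2 arrays in the actin measure, and the other tagged arrays lay above them. In the ubiquitin control the difference ran from 6.95 to 7.25 in overactivation, from 7.02 to 7.498 in underactivation and from 5.69 to 6.76 in N2, and in gly14 from -1.25 to -1.03, from -1.22 to -0.73 and from -1.44 to -1.36 in the same order, so that every tagged array, underactivation replicate 4 among them, lay above N2 in both. In Gapdh overactivation (3.20 to 3.603) lay above N2 (2.02 to 2.96) and underactivation (2.87 to 4.06) overlapped it, and in catalase both tagged groups overlapped N2. The part that this imbalance and the other tissues had in the differences below was not tested, beyond a fit with the actin value as a covariate.

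None of the 10 genes passed the test by its brightest probe set in any comparison (limma, Benjamini-Hochberg over 22548 probe sets, adjusted p under 0.05). Between overactivation and N2, 0 of 10 passed where 1.56% of all probe sets did. The lowest adjusted p of the 10 was 0.0524, for lin-14. At an unadjusted p under 0.05, however, stood 6 of the 10 genes, 2 of them higher and 4 lower, where 17.9% of all probe sets did (8.83% higher, 9.07% lower). The arrays of overactivation and N2 did not overlap for 7 genes, of which 3 lay above N2 and 4 below, where 20.7% of all probe sets did not (11.6% above, 9.06% below). The size of the difference had a median of 0.90 over the 10 genes and of 0.29 over all genes. With direction kept, the medians were -0.33 and 0.07. In underactivation against N2, 0 of 10 genes passed, where 0.00443% of all probe sets did, and 6 had an unadjusted p under 0.05, with 2 of them higher and 4 lower, where 12.8% of all probe sets did (6.51% higher, 6.31% lower). The arrays did not overlap for 6 genes, where 15.7% of all probe sets did not. Both comparisons use the same 3 N2 arrays, so they do not count as separate evidence. The 10 genes were also chosen with earlier results known, so these shares are a description and not a test of the set. The shares are over all probe sets, dim ones included, whereas each of the 10 genes is read by its brightest. No share was computed for brightest probe sets alone. Between overactivation and underactivation, again 0 of 10 genes passed, where 0.00443% of all probe sets did, and 1 gene, lin-29, had an unadjusted p under 0.05 against 5.66%.

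**Figure D1:**
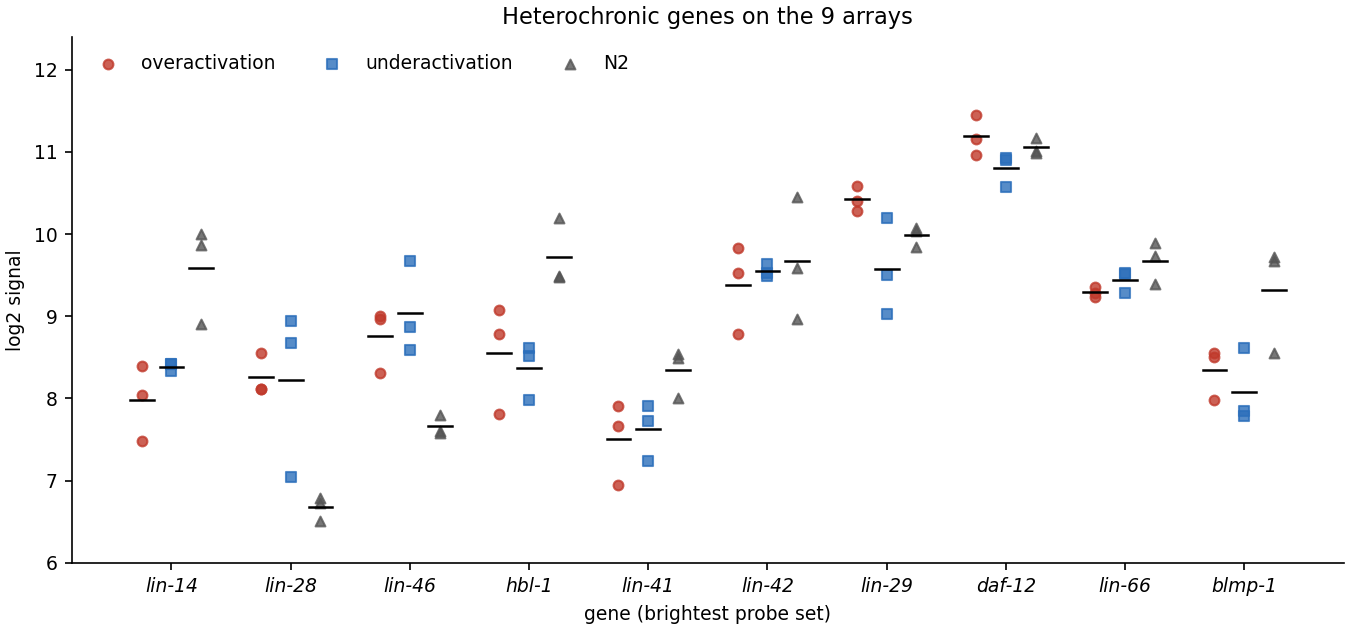
Log2 signal (vertical axis) of the brightest probe set of each heterochronic gene on the 9 arrays. Circles are overactivation, squares underactivation and triangles N2, 3 arrays each, and each bar is a group mean; lin-28 and lin-46 lie higher on every tagged array than on any N2 array, and lin-14, hbl-1 and lin-41 lower.

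Among the genes of the early program, lin-14, which encodes the transcription factor of the L1 stage and the founding target of lin-4, had the lowest difference from N2 in overactivation by brightest probe set. Its only probe set, 193913_s_at, read 8.05, 7.48 and 8.40 in overactivation, 8.33, 8.41 and 8.41 in underactivation, and 8.91, 9.999 and 9.86 in N2. Every tagged array was below every N2 array, and the underactivation arrays differed from each other by less than those of either other group. The means were 7.98 ± 0.46 in overactivation and 9.59 ± 0.59 in N2 (SD, n = 3 each), a difference of -1.61 (SE 0.33, adjusted p = 0.0524), or 3.06-fold lower. Underactivation differed from N2 by -1.20 (adjusted p = 0.184) and overactivation from underactivation by -0.41 (95% interval -1.16 to 0.33, adjusted p = 0.936). The overactivation call for lin-14 lies so near the threshold that it turned on single choices: without N2 replicate 2, the lowest of the controls, the difference from N2 was -1.95 and passed (adjusted p = 0.0290).

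hbl-1, a hunchback-like zinc-finger factor of the L2 stage, also read lower than N2 on all 6 tagged arrays. Probe set 175782_s_at read 7.81, 8.78 and 9.08 in overactivation, 8.52, 8.61 and 7.98 in underactivation, and 9.49, 10.20 and 9.48 in N2. The difference from N2 was -1.16 in overactivation (SE 0.36, adjusted p = 0.139) and -1.35 in underactivation (adjusted p = 0.174), neither of which passed. The dimmer hbl-1 probe set, 192791_s_at, was far more variable within N2 (4.56, 7.08 and 7.52), where its lowest array overlapped the tagged ones, and differed by -1.77 in overactivation and -1.54 in underactivation (adjusted p = 0.284 and 0.472).

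lin-28 encodes an RNA binding protein that blocks let-7 processing and specifies L2 divisions. Its brightest probe set, 173437_at, read 8.11, 8.11 and 8.55 in overactivation, 8.67, 7.04 and 8.94 in underactivation, and 6.79, 6.51 and 6.73 in N2. All tagged arrays exceeded all N2 arrays, but underactivation replicate 4 lay much closer to N2 than the other tagged arrays did, as it did in the actin control. The differences from N2 were 1.58 in overactivation (SE 0.44, adjusted p = 0.109), or 3.00-fold, and 1.54 in underactivation (adjusted p = 0.203). Underactivation replicate 4 does not enter the first of these differences, only the spread shared by the groups, and without that array the test passed (adjusted p = 0.0244). With the actin value as a covariate the overactivation difference was 0.59 (adjusted p = 0.972) and the underactivation difference 0.63.

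The remaining lin-28 probe sets pointed the other way. Probe set 172855_x_at read 4.72, 5.09 and 4.96 in overactivation, 5.62, 5.69 and 6.59 in underactivation, and 7.83, 6.56 and 5.62 in N2, and probe set 191973_s_at read 5.08, 5.61 and 5.49, 5.38, 6.34 and 6.82, and 8.20, 6.87 and 5.94 in the same order. Overactivation arrays were below all N2 arrays in both, while underactivation arrays overlapped N2. They differed between overactivation and N2 by -1.75 and -1.61 (adjusted p = 0.122 and 0.174). A direction for lin-28 transcripts therefore cannot be given from these arrays. A mean over its 3 probe sets differed from N2 by -0.59 in overactivation.

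lin-46, whose gephyrin-related product acts opposite to LIN-28 in the L3 stage, read higher than N2 on all tagged arrays. Probe set 175684_at read 8.31, 8.96 and 9.0 in overactivation, 8.87, 8.58 and 9.67 in underactivation, and 7.58, 7.79 and 7.60 in N2. The N2 arrays varied little (SD 0.12) and did not overlap either tagged group. The difference from N2 was 1.10 in overactivation (SE 0.31, adjusted p = 0.109) and 1.38 in underactivation (adjusted p = 0.115), and between the tagged groups -0.28 (95% interval -0.98 to 0.41). The dimmer lin-46 probe set, 175650_s_at, ran in the same direction, with differences of 0.69 (adjusted p = 0.404) and 1.18 (adjusted p = 0.268). Its overactivation replicate 1, at 4.56, lay below all N2 arrays.

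**Figure D2:**
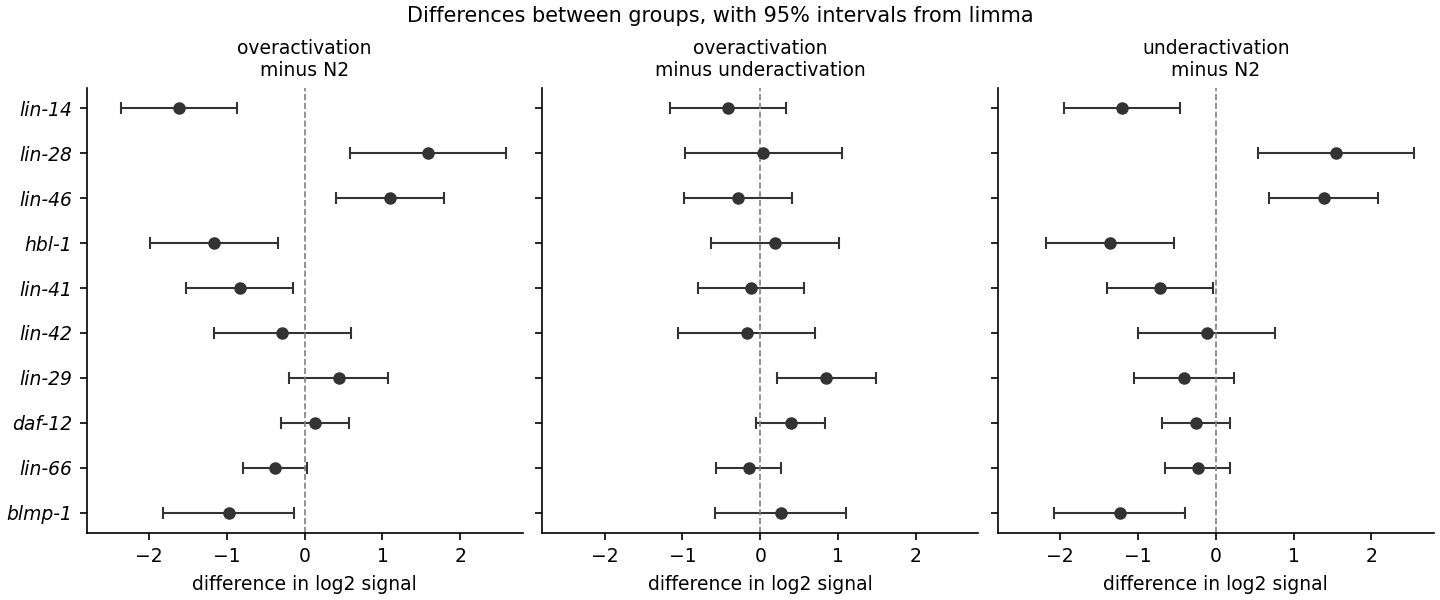
Difference in log2 signal (horizontal axis) between groups for the brightest probe set of each heterochronic gene, with points for the estimate and bars for the unadjusted 95% interval from limma. In the left and right panels, which share the N2 arrays, lin-28 and lin-46 lie above 0 and lin-14, hbl-1, lin-41 and blmp-1 below it, and in the middle panel the interval of lin-29 alone leaves out 0.

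lin-41, a TRIM-NHL RNA binding protein and let-7 target, read 7.91, 6.95 and 7.67 in overactivation, 7.24, 7.91 and 7.72 in underactivation, and 8.49, 8.01 and 8.54 in N2 by probe set 175677_s_at. Both tagged groups lay below N2 without overlap, by -0.83 in overactivation (SE 0.30, adjusted p = 0.189) and by -0.72 in underactivation (adjusted p = 0.369). In the dimmer probe set, 187703_s_at, overactivation also lay below N2 without overlap (4.60, 4.14 and 5.68 against 6.13, 6.34 and 7.70; difference -1.92, adjusted p = 0.139).

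lin-42, the worm relative of the clock gene period, did not separate the groups. Probe set 179896_at read 8.79, 9.83 and 9.52 in overactivation, 9.49, 9.63 and 9.52 in underactivation, and 8.97, 9.58 and 10.45 in N2. N2 alone spanned a wider range than the group means did. The difference between overactivation and N2 was -0.29 with a 95% interval of -1.17 to 0.59, and the dimmer probe set, 176596_at, differed by 0.15 (95% interval -0.31 to 0.60).

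lin-29 had the largest difference between overactivation and underactivation among the brightest probe sets. Probe set 175716_at read 10.28, 10.40 and 10.59 in overactivation, 10.19, 9.03 and 9.5 in underactivation, and 10.04, 10.08 and 9.84 in N2. Every overactivation array was above every array of the other groups, while underactivation overlapped N2. Overactivation exceeded underactivation by 0.85 (SE 0.28, 95% interval 0.21 to 1.49, unadjusted p = 0.0150, adjusted p = 0.730) and N2 by 0.44 (adjusted p = 0.466), so neither passed. Underactivation replicate 4, at 9.03, was the lowest array, and without it the difference between the tagged groups was 0.58.

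daf-12, whose nuclear receptor is bound by the steroid hormones called dafachronic acids, varied little by its brightest probe set (SD 0.24 over the 9 arrays). Probe set 175665_at read 10.96, 11.16 and 11.44 in overactivation, 10.92, 10.57 and 10.91 in underactivation, and 11.01, 11.17 and 10.98 in N2. Overactivation overlapped N2 (difference 0.13, 95% interval -0.30 to 0.57, adjusted p = 0.773) and lay above underactivation without overlap (0.39, adjusted p = 0.906). Probe set 192797_s_at, however, read 7.23, 7.92 and 8.46 in overactivation, 7.45, 8.25 and 7.47 in underactivation, and 8.53, 8.94 and 9.39 in N2. Both tagged groups were below N2 there, by -1.09 and -1.23 (adjusted p = 0.169 and 0.220), whereas the third daf-12 probe set, 187714_at, differed from N2 by 0.17 in overactivation and -0.12 in underactivation.

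lin-66, which lowers LIN-28 and thereby permits L3 fates, held the only probe set of the 21 that passed. Probe set 187938_at read 5.41, 5.69 and 6.63 in overactivation, 6.50, 6.92 and 6.04 in underactivation, and 8.09, 7.97 and 8.34 in N2. No tagged array came within 1 log2 unit of any N2 array. The signal fell 4.68-fold in overactivation against N2 (log2 difference -2.23, SE 0.34, adjusted p = 0.0254), and the difference between underactivation and N2 was -1.65 (adjusted p = 0.107). Among all probe sets tested, 0.692% passed as lower between overactivation and N2. With the actin value as a covariate the difference was -1.53 and did not pass (adjusted p = 0.673), and it did not pass with any of 5 of the 9 arrays left out (underactivation replicate 2, overactivation replicate 1 or 3, N2 replicate 3 or 4). Nor did it pass with a fixed replicate block (-2.003, adjusted p = 0.143), without moderation of the spread (adjusted p = 0.128) or with only the overactivation and N2 arrays in the fit (adjusted p = 0.0656). Over all probe sets, 0 passed with the actin covariate or the fixed block, 3 without moderation and 70 with only those arrays. Such losses were therefore not particular to this probe set.

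The brighter lin-66 probe sets did not pass. Probe set 174892_at read 8.51, 7.97 and 9.27 in overactivation, 8.89, 8.94 and 8.24 in underactivation, and 10.02, 9.71 and 9.87 in N2, and differed from N2 by -1.28 and -1.18 (adjusted p = 0.0949 and 0.202). The brightest, 174959_at, read 9.24, 9.35 and 9.28 in overactivation, 9.53, 9.28 and 9.51 in underactivation, and 9.89, 9.73 and 9.40 in N2, a difference of -0.38 in overactivation (95% interval -0.80 to 0.03, adjusted p = 0.320). All 3 lin-66 probe sets thus read lower in overactivation than in N2, but by sizes between 0.38 and 2.23.

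blmp-1 encodes a zinc-finger transcription factor of the epidermis that is removed through the ubiquitin ligase subunit DRE-1. Its probe sets ran in opposite directions. Probe set 192395_at read 7.98, 8.55 and 8.50 in overactivation, 7.78, 8.62 and 7.85 in underactivation, and 8.55, 9.68 and 9.73 in N2, and differed by -0.97 in overactivation (SE 0.37, adjusted p = 0.211) and -1.24 in underactivation (adjusted p = 0.216). N2 replicate 2 lay within the tagged arrays. Probe set 175302_at read 8.91, 9.51 and 9.39 in overactivation, 8.67, 7.78 and 8.75 in underactivation, and 6.90, 8.49 and 8.16 in N2. There overactivation lay above both other groups without overlap, by 1.42 over N2 (adjusted p = 0.133) and by 0.87 over underactivation (adjusted p = 0.906).

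With the actin value as a covariate, the overactivation minus N2 difference was -1.43 for lin-14, -0.80 for hbl-1, 0.61 for lin-46, -0.42 for lin-41, -0.41 for lin-42, 0.07 for lin-29, 0.0042 for daf-12, -0.51 for lin-66 by 174959_at and -0.59 for blmp-1 by 192395_at, with adjusted p between 0.790 and 0.999. The lin-46, lin-41, lin-29, daf-12 and blmp-1 values were thus smaller by over 1.5 times. Those of lin-42 (from -0.29) and lin-66 (from -0.38) were larger in size. The underactivation minus N2 difference was -1.03 for lin-14, -1.02 for hbl-1, 0.94 for lin-46, -0.34 for lin-41, -0.75 for lin-29 and -0.88 for blmp-1 in that fit, with none passing. There the values of lin-29 (from -0.41), lin-42, daf-12 and lin-66 grew in size. The actin value itself separated most tagged arrays from N2, so this fit cannot tell the actin imbalance from the comparison with N2. Over all probe sets, 0 passed in either comparison in that fit.

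**Figure D3:**
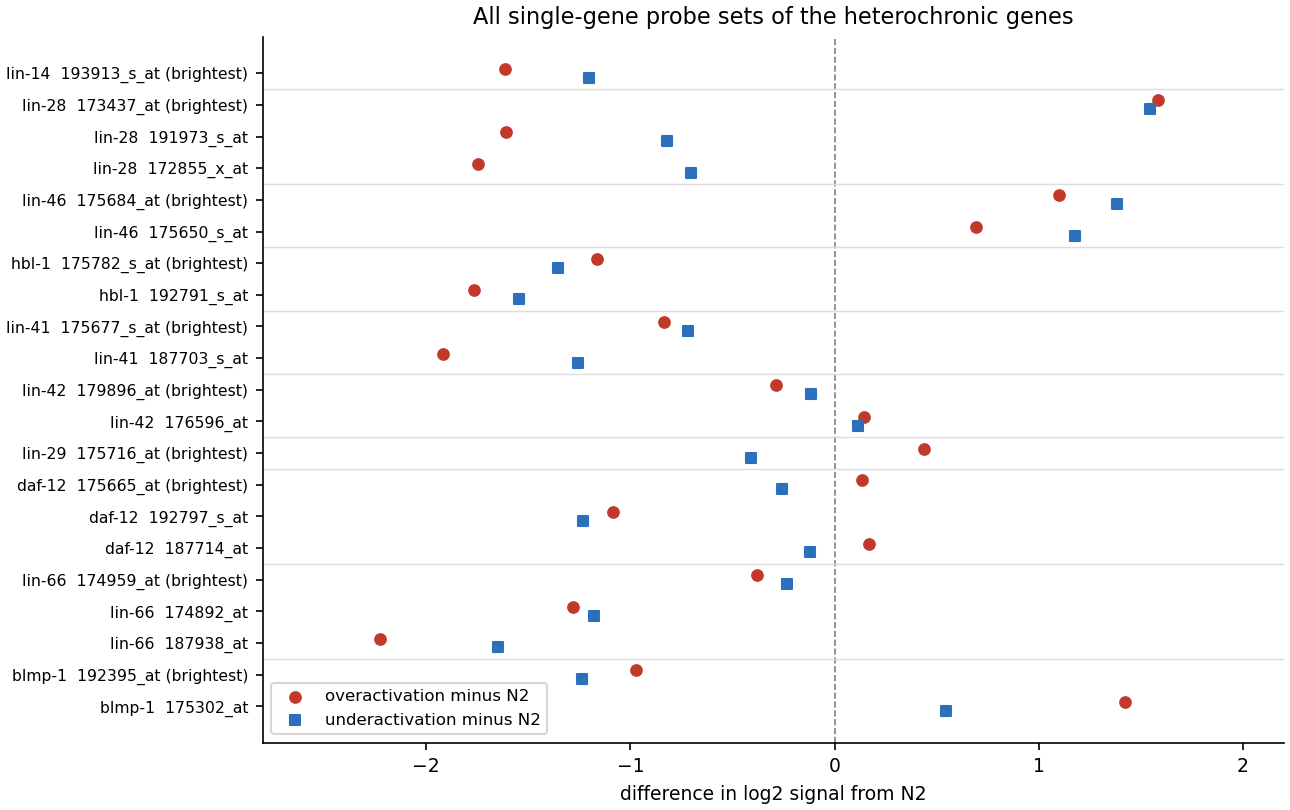
Difference in log2 signal from N2 (horizontal axis) for all 21 single-gene probe sets of the heterochronic genes, circles for overactivation and squares for underactivation. Probe sets of lin-28, blmp-1, daf-12 and lin-42 lie on both sides of 0, whereas those of lin-46, hbl-1, lin-41 and lin-66 each lie on the same side.

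Over all 21 probe sets, 13 had an unadjusted p under 0.05 between overactivation and N2 (3 higher, 10 lower), where 17.9% of all probe sets did (8.83% higher, 9.07% lower), and 1 passed after adjustment, where 1.56% did. The 11 dimmer probe sets had a median difference of -1.28, and the 10 brightest of -0.33. To measure this, the dimmer probe set was subtracted from the brightest of the same gene on each array, which gave 11 pairs in 8 of the heterochronic genes and 3648 pairs in 2981 genes in all. This comparison was chosen after the values had been seen. None of the 3648 pairs passed between overactivation and N2 (limma, adjusted over the pairs), with 858 at an unadjusted p under 0.05. Of the 11 pairs, 4 were higher in overactivation and 1 was lower at an unadjusted p under 0.05, where the shares over all pairs were 16.8% and 6.74%. The brightest probe set was chosen by its mean over 9 arrays, of which 6 were tagged, so the rule itself favors probe sets that are high on tagged arrays. Over all pairs 65.4% were above 0, with a median of 0.28, and nothing is read from that direction.

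In lin-28 the difference 173437_at minus 172855_x_at was 3.39, 3.02 and 3.59 in overactivation, 3.05, 1.35 and 2.35 in underactivation, and -1.04, -0.05 and 1.10 in N2. The balance of these probe sets thus differed by 3.33 between overactivation and N2 (adjusted p = 0.0588). In blmp-1, 192395_at minus 175302_at was -0.93, -0.96 and -0.88 in overactivation, -0.88, 0.84 and -0.90 in underactivation, and 1.64, 1.19 and 1.57 in N2, a difference of -2.39 in overactivation (adjusted p = 0.0597). Underactivation replicate 4 alone among the tagged arrays had the sign of the N2 arrays. In lin-66, 174959_at exceeded 187938_at by 3.83, 3.67 and 2.66 in overactivation, by 3.03, 2.36 and 3.47 in underactivation, and by 1.80, 1.76 and 1.06 in N2, a difference of 1.85 (adjusted p = 0.0673). In daf-12 the same measure for 175665_at over 192797_s_at differed by 1.22 (adjusted p = 0.126).

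Underactivation replicate 4 bears on the test of overactivation against N2 only through the shared spread. Without it, 162 of the 3648 pairs passed between overactivation and N2, among them blmp-1 (adjusted p = 0.0128), lin-28 (adjusted p = 0.0290) and lin-66 (adjusted p = 0.0385), while with any other array left out 0 to 3 passed. With the actin 3' minus 5' value as a covariate the differences were 2.53 for lin-28, -1.29 for blmp-1, 1.03 for lin-66 and 0.52 for daf-12, and 0 pairs passed (131 at an unadjusted p under 0.05). Where the probes of each set lie along the transcript was not analysed here.

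**Figure D4:**
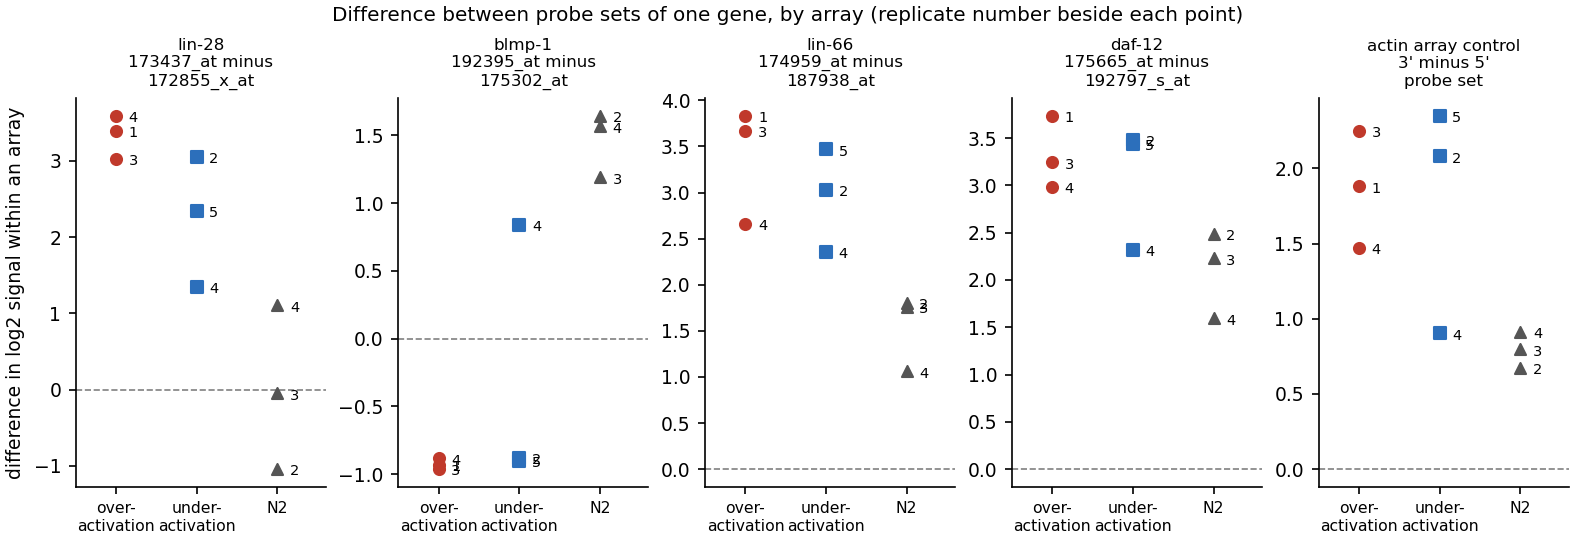
Difference in log2 signal (vertical axis) between a pair of probe sets of the same gene within each array, with the replicate number beside each point, and the actin array control at the right. For lin-28, lin-66, daf-12 and the actin control the 3 overactivation arrays lie above the 3 N2 arrays, and for blmp-1 below them. In every panel underactivation replicate 4 is the tagged array nearest to N2.

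The 3 members that varied most over the 9 arrays were lin-28 (SD 0.95), lin-14 (SD 0.82) and hbl-1 (SD 0.76). Profiles were compared after centring each gene on its mean over the 9 arrays, and the nearest gene was the one with the smallest root mean square difference. The nearest to lin-14 were F53C11.4 (0.19), eva-1 (0.23) and nrx-1 (0.26), those to lin-28 were cgef-1 (0.32), kmo-1 (0.33) and F43G9.13 (0.34), and those to hbl-1 were ins-30 (0.26), kcc-1 (0.28) and ntl-4 (0.30). Each of these 9 genes differed between overactivation and N2 in the direction of the member it was nearest to, as the measure requires, and none passed (adjusted p between 0.0564 and 0.265).

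The wider pathway was described through 3 lists of genes. Partners of the heterochronic proteins and the enzymes that make the DAF-12 ligand had 13 of 13 genes measured, of which 0 passed in any comparison. At an unadjusted p under 0.05, 2 genes were higher in overactivation than in N2 and 5 were lower, where 8.83% and 9.07% of all probe sets were, with a list median of -0.24. nhr-25, a nuclear receptor needed for molting and seam cell development, read 7.63, 8.41 and 8.39 in overactivation, 7.73, 7.53 and 7.86 in underactivation, and 6.80, 7.32 and 6.79 in N2, with no overlap between N2 and the tagged arrays. It differed from N2 by 1.17 in overactivation (adjusted p = 0.0670) and by 0.74 in underactivation (adjusted p = 0.289). kin-20, a casein kinase 1 relative that works with LIN-42, read 7.72, 8.62 and 9.70 in overactivation, 9.17, 10.29 and 8.91 in underactivation, and 10.53, 10.74 and 11.21 in N2. Its difference from N2 was -2.15 in overactivation (adjusted p = 0.0796) and -1.37 in underactivation (adjusted p = 0.320), and with the actin covariate -1.09 (adjusted p = 0.932) and -0.40. dre-1 differed between overactivation and N2 by 1.08 (adjusted p = 0.149).

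The list of microRNA machinery had 9 of 9 genes measured, 0 passed in any comparison, and 1, a lower one, had an unadjusted p under 0.05 between overactivation and N2, where 9.07% of all probe sets were lower. That gene was nhl-2, a TRIM-NHL cofactor of the microRNA complex, at 5.83, 5.85 and 6.91 in overactivation, 6.14, 7.47 and 6.18 in underactivation, and 7.66, 6.99 and 8.31 in N2. Overactivation lay below N2 (difference -1.45, adjusted p = 0.159), and underactivation overlapped N2 (-1.06, adjusted p = 0.408). With the actin covariate these differences were -0.40 (adjusted p = 0.995) and -0.09. alg-1, a microRNA Argonaute, read 7.56, 7.55 and 8.21 in overactivation, 7.45, 7.13 and 7.21 in underactivation, and 8.26, 8.14 and 8.18 in N2. Underactivation lay below N2 without overlap (-0.93, adjusted p = 0.131), and overactivation lay above underactivation without overlap (0.51, adjusted p = 0.875). At the upper end of this list, pash-1, the partner of the Drosha nuclease, differed by 0.29 in overactivation (adjusted p = 0.843) and drsh-1, Drosha itself, by 0.22 in underactivation (adjusted p = 0.900), and in both the arrays overlapped.

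Downstream stage markers, the genes through which the pathway is read out, had 11 of 12 measured, and 0 passed in any comparison. At an unadjusted p under 0.05, 6 of the 11 were higher in overactivation than in N2 and 0 were lower, where 8.83% of all probe sets were higher, and the list median was 0.90. The same 6 had no overlap between overactivation and N2, where 11.6% of all probe sets lay above N2. They were the adult cuticle collagen genes col-19, bli-1 and rol-1, the cell fusion gene eff-1, the cyclin-dependent kinase inhibitor cki-1 and the insulin-like gene ins-33. Of these, the paper names at least cki-1 and rol-1 among the genes it selected as raised in overactivation over N2. Its full list was not available here, so whether the others are in it was not checked. The list was chosen with earlier results of these data known, so its count is a description and not a separate test. ins-33, a target of LIN-14 repression, read 9.33, 9.67 and 8.83 in overactivation, 8.67, 7.63 and 10.79 in underactivation, and 7.32, 5.05 and 7.38 in N2. It differed from N2 by 2.69 in overactivation (adjusted p = 0.143) and 2.45 in underactivation (adjusted p = 0.278). cki-1 read 9.53, 8.79 and 9.48 in overactivation, 8.51, 6.93 and 9.05 in underactivation, and 6.81, 7.63 and 7.04 in N2, a difference of 2.11 (adjusted p = 0.0792). Without underactivation replicate 4, which enters that test only through the shared spread, it passed (adjusted p = 0.0290). With the actin covariate the overactivation minus N2 difference was 1.07 for cki-1, 0.95 for ins-33, 0.88 for bli-1, 0.43 for eff-1, 0.85 for col-19 and 1.15 for rol-1 (adjusted p between 0.845 and 0.995). Relative to N2, the 9 seam cell markers had a median difference of 1.01 in overactivation and 0.10 in underactivation, and their part in these values was not tested. These 9 include egl-18, elt-6, grd-3 and che-14, which the paper identified as Wnt-regulated from the same comparison.

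The collagen genes separated overactivation from underactivation as well. The paper names cuticle components as the largest enriched class among its Wnt-raised genes. It also cites earlier work in which some collagen genes of the L4 stage came on sooner under ectopic Wnt signaling. col-19, the usual marker of the adult switch and a LIN-29 target, read 6.62, 6.67 and 6.28 in overactivation, 5.99, 5.83 and 5.74 in underactivation, and 5.93, 5.67 and 5.28 in N2. All overactivation arrays lay above those of the other groups, by 0.90 over N2 (adjusted p = 0.0774) and by 0.67 over underactivation (adjusted p = 0.694). bli-1 exceeded underactivation by 1.69 and rol-1 by 1.33, likewise without overlap (adjusted p = 0.687 and 0.693), and between underactivation and N2 the differences of col-19, bli-1 and rol-1 were 0.23, 0.05 and 0.14 with overlapping arrays. bli-1 leaned on a single array, reading 5.65, 7.49 and 5.17 in overactivation replicates 1, 3 and 4. Without overactivation replicate 3 its difference from N2 was 1.04, against 1.74 with all arrays. Of the 11 markers, 3 lay above underactivation without overlap in overactivation, where 6.59% of all probe sets did. At the lower end of the list, mab-3 differed from N2 by -0.11 in overactivation (adjusted p = 0.844) and apl-1 by -0.16 in underactivation (adjusted p = 0.939), both with overlapping arrays.

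**Figure D5:**
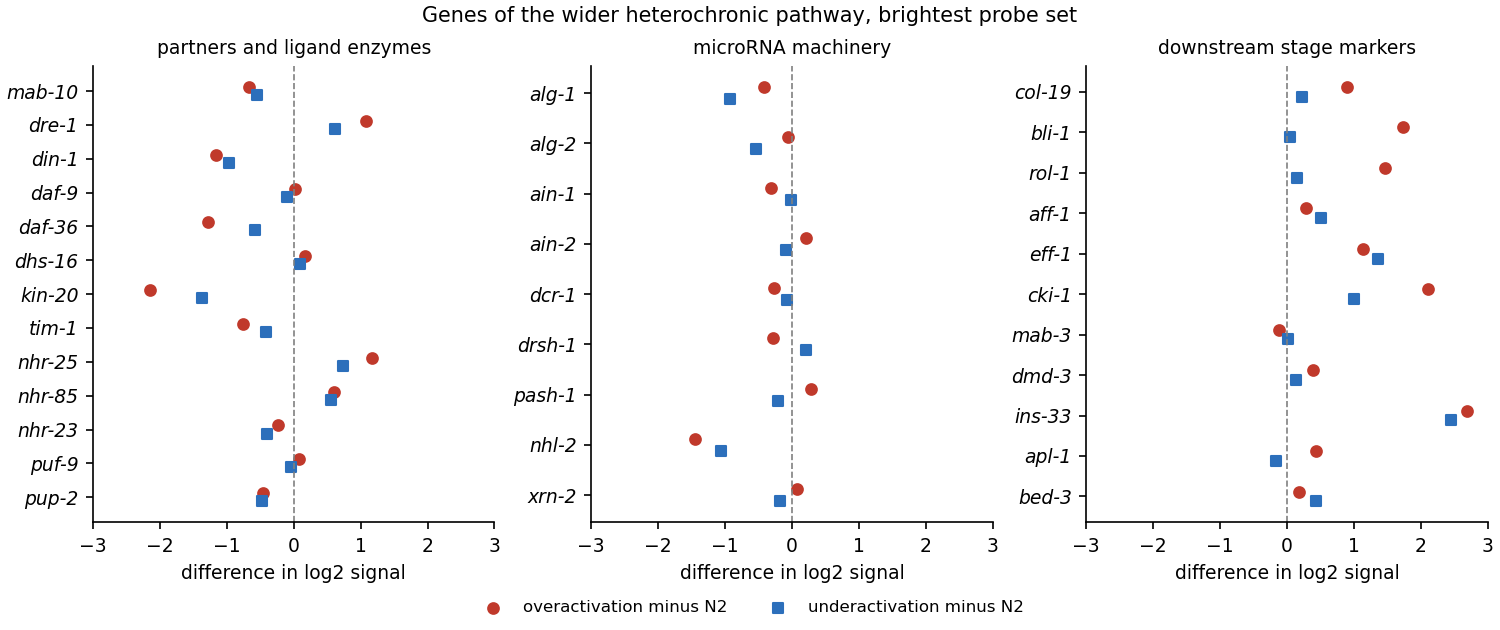
Difference in log2 signal from N2 (horizontal axis) for the genes of the 3 pathway lists by their brightest probe set, circles for overactivation and squares for underactivation. In the right panel col-19, bli-1 and rol-1 lie well above 0 in overactivation and near 0 in underactivation, and ins-33 lies above 2 in both.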

How the data were processed

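The log2 signals of 9 Affymetrix C. elegans arrays were taken as deposited. Per the labels and methods, the authors computed them with Robust Multichip Average in Partek (versions not given in the sources used here) from coimmunoprecipitated mRNA. The labels name both amplified cDNA and labeled cRNA from total RNA, which the values do not resolve. The platform annotation gave 1 gene for 20766 probe sets, several for 887 and none for 895. Signals were not compared with background. Precision is limited by the number of arrays. Array controls (77) did not enter the fit.

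For each of 22548 probe sets, limma 3.58.1 in R 4.3.3 fitted the means of the 3 groups with moderated spread (6 residual and 2.71 prior degrees of freedom). Tests were two-sided, with Benjamini-Hochberg adjustment over all probe sets at 0.05. The fit was run on simulated data with independent noise of equal spread, a setting unlike these arrays. That run checks the code and not the calls made here. Intervals are unadjusted. Figures came from matplotlib 3.10.9 under Python 3.11.15.

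The 10 genes and all lists were chosen with earlier results of these data known. All 10 genes were named. From each pathway list the genes that passed were to be named or, as none did, the largest difference upward and downward from N2. Several genes, namely dre-1, alg-1, snb-1, unc-31, unc-119, egl-18, elt-6, grd-3, che-14, elt-2 and 5 of the 6 stage markers that did not overlap (all but ins-33), were named after their values were seen. So were hsp-70, hsp-16.2, myo-3, unc-54, egl-3, ges-1, hlh-1 and him-3. The names col-7, bro-1, nhr-73, nhr-74 and opt-2 had no probe set of their own. Alternatives were another normalization, centring, leaving out dim probe sets (a share of 0.333), other moderation, only the compared groups, replicate blocks, array weights, means over probe sets and each array left out. The actin covariate and all alternatives for pairs and lists were added after the data had been seen.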

Additional observations from a re-analysis of the deposited data

How the results depend on the processing

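None of the 10 genes passed in overactivation against N2 as reported. Under each of centring on the array median, leaving out dim probe sets, a random replicate block and array weights, 1 passed, which was lin-14 each time (-1.56, -1.61, -1.63 and -1.72; adjusted p = 0.0474, 0.0392, 0.0436 and 0.0485, limma). With means over probe sets 2 passed, lin-14 (adjusted p = 0.0484) and lin-66 (-1.30, adjusted p = 0.0375), and with an array left out 0 to 1. Over all probe sets, the count for overactivation against N2 was 352 as reported, 3 without moderation, 70 with only the 2 groups, 0 with the fixed replicate block (3651 at an unadjusted p under 0.05), 0 with the actin covariate (1269) and 8 to 494 with an array left out. For overactivation against underactivation it was 1 as reported, 7 after quantile normalization, 4 after centring, 8 without dim probe sets, 12 with trend and robust moderation, 13 with array weights, 0 without moderation, with only the 2 groups, the fixed block or the actin covariate (1214), and 0 to 7 with an array left out. For underactivation against N2 it was 1 as reported, 2 after quantile normalization, 16 without dim probe sets, 0 without moderation, with only the 2 groups, the fixed block or the actin covariate (969), and 0 to 3 with an array left out. The cause of these shifts was not tested.

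Arrays that share a replicate number were not treated as pairs: 5 such pairs had residual correlations from -0.088 to 0.234 and the other 22 from -0.197 to 0.211. The fixed replicate block changed no call of the 10 genes by brightest probe set, but lin-66 probe set 187938_at lost its call (-2.003, adjusted p = 0.143).

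Of 600 recomputed differences of the 10 genes, 572 kept their direction and their side of the threshold, 8 newly passed and 20 turned in direction. As means over probe sets, the overactivation minus N2 differences of blmp-1, daf-12 and lin-28 became 0.22, -0.26 and -0.59, and the overactivation minus underactivation differences of hbl-1 and lin-28 became -0.017 and -0.60. Between overactivation and underactivation, lin-28 also turned with array weights (-0.019) and the actin covariate (-0.043), and with the fixed replicate block blmp-1 (-0.20) and lin-46 (0.24) did. Leaving out an array gave ranges across 0 between overactivation and underactivation for hbl-1 (-0.072 to 0.56), lin-28 (-0.55 to 0.40), lin-41 (-0.32 to 0.16), lin-42 (-0.39 to 0.13) and lin-46 (-0.51 to 0.029), between overactivation and N2 for lin-42 (-0.64 to 0.10), mab-3 (-0.30 to 0.073) and pash-1 (-0.33 to 0.65), and between underactivation and N2 for lin-42 (-0.47 to 0.27), apl-1 (-0.55 to 0.24) and drsh-1 (-0.21 to 0.50).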

Other observations

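A further lin-29 probe set, 193019_s_at, is annotated to more than a single gene identifier and was therefore not counted above. It read 3.98, 3.98 and 3.44 in overactivation, 3.6, 3.98 and 3.39 in underactivation, and 4.2, 5.21 and 5.01 in N2. Signals this low may lie near background, with which no signal was compared. All tagged arrays lay below all N2 arrays, with differences of -1.01 in overactivation (adjusted p = 0.131, limma) and -1.15 in underactivation (adjusted p = 0.171), whereas the lin-29 probe set described above differed from N2 by 0.44 and -0.41.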
